A study of Mus musculus with 2 samples.

Results

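The genes described are 10 genes of the ATF4 and CHOP stress response, chosen by symbol. No rule on their values was used, but the list was made with earlier results of these data known. It holds Atf4, Atf3, Ddit3 (which encodes CHOP), Chac1, Trib3, Nupr1, Ddit4, Ppp1r15a, Asns and Eif4ebp1. All 10 symbols were found once each among the 18987 genes of the deposited count table. They were measured by RNA sequencing in the mouse macrophage line RAW264.7, whose cells become osteoclast-like under RANKL, the cytokine that drives osteoclast formation. Both cultures received 100 ng/ml RANKL 24 h after seeding at 7500 cells per cm2, and the series title gives 3 days after RANKL as the time. The control library is from a line expressing a control shRNA, and the knockdown library from cells with an shRNA against Cpeb4, which encodes an RNA-binding protein that acts on cytoplasmic polyadenylation. The sources used here do not name the control sequence or the number of hairpins against Cpeb4, nor say whether the lines are clones or pools.

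ATF4 and CHOP are transcription factors of the integrated stress response. Kinases that sense stress in the endoplasmic reticulum, amino acid shortage, viral RNA or haem shortage phosphorylate the initiation factor eIF2α, which lowers translation in general and raises translation of a few mRNAs with upstream reading frames, Atf4 among them. ATF4 then switches on genes for amino acid supply and, under lasting stress, Ddit3 and other genes of growth arrest and cell death. In bone, osteoclast formation needs high output of secreted enzymes, and the stress sensors of the endoplasmic reticulum are active in it.

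There was 1 library per group, so each difference below compares 2 libraries, with no replicate check and no test. Total counts were 79399680 in the control library and 119350322 in the knockdown library. Cpeb4 itself had 25270 and 13491 counts, 3.31-fold lower in the knockdown library. Values are in CPM, counts relative to library depth after scaling by the trimmed mean of M-values (TMM), and the log2 ratio is knockdown over control. Its 95% interval covers counting error only. Over the 12086 genes that averaged 1 CPM or more (the filter used throughout), 11.8% were at least 2-fold lower in the knockdown library and 14.6% at least 2-fold higher, 55.4% of the genes past 2-fold being higher. With scaling to total counts, each ratio lay 0.23 higher on the log2 scale and that share was 70.5%. Of markers of cell state, 9 of 10 osteoclast genes were at least 2-fold lower (Oscar at -3.82 and Calcr at -3.49 lowest, Nfatc1 at -0.05 and Ocstamp at -1.37 highest), and their summed level was 49810 CPM in the control and 11300 CPM in the knockdown library. All 10 proliferation genes were at least 2-fold higher (from Pcna at 2.18 and Aurka at 2.48 to Ccna2 at 4.61 and Mki67 at 5.03), with sums of 188 and 2181 CPM. Of 7 macrophage genes above it 1 was at least 2-fold lower and 0 higher (Cd68 at -1.04 and Csf1r at -0.61 lowest, Cd14 at 0.35 and Lyz2 at 0.998 highest), with sums over the 9 listed of 4848 and 3117 CPM. Of 10 fibroblast and osteoblast markers 6 were listed, with sums of 0.724 and 1.4 CPM, and 0 passed the filter. Of 10 lymphoid, granulocyte and mast cell markers 1 was listed, at 4 and 10 counts. The part of these shifts in the values below was not tested, and in bulk RNA fewer cells of a type and less RNA per cell cannot be told apart.

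The short DNA element through which ATF4, paired with a C/EBP protein, acts on its targets is the C/EBP-ATF response element. Its core was searched as TGATGNAA on both strands of the 300 bases from 250 before to 50 after each RefSeq transcription start. The table of promoters (RefSeq, GRCm38.p6) held 9 of the 10 genes, all but Eif4ebp1, with 1 start each. A match lay in 5 of these 9 windows, beside 3.97% of all 32851 windows. The stretches with a match are printed 5′ to 3′ on the gene's strand, with the match in capitals, since they are the sequence feature that part of the genes share. Where a stretch would reach an annotated exon or lie after the start, 30 bases are shown.
Atf3 (chr1:191183396-191183483, minus strand): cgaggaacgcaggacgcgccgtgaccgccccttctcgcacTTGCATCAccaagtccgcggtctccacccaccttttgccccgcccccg
Chac1 (chr2:119351009-119351096, plus strand): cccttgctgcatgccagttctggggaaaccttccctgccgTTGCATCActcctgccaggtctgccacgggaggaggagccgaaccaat
Nupr1 (chr7:126625562-126625591, minus strand): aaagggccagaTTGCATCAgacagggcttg
Trib3 (chr2:152344028-152344057, minus strand): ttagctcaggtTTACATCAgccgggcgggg
Asns (chr6:7693214-7693243, minus strand): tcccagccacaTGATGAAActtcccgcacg

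Atf3, Chac1 and Nupr1 held the same 8 letters, TTGCATCA, which read TGATGCAA on the other strand. They began 110 bases before the start in Atf3 and in Nupr1, and 193 bases before it in Chac1. The Trib3 match (TGATGTAA on the other strand) began 14 bases after the start and the Asns match, the only one on the gene's own strand, 23 bases before it. In the GENCODE annotation the Asns and Nupr1 matches fall in an exon, since transcripts annotated there begin further upstream. The Trib3 match lies outside GENCODE exons, upstream of the gene start annotated there at position 152344032. The windows of Atf4, Ddit3, Ddit4 and Ppp1r15a held no match, which says only that these letters are not in those windows. The cAMP response element TGACGTCA was found in Ppp1r15a, 12 bases before the start (1.79% of all windows), and the AP-1 element TGANTCA in Ddit3, 242 bases before it (7.81%). The endoplasmic reticulum stress element (ERSE) was in 0 of the 9 windows and in 0.119% of all.

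As a set, the stress genes were lower in the knockdown library, and the depth of the difference varied widely among them. Ddit3, Trib3, Nupr1, Ddit4 and Chac1 were at least 2-fold lower, which is 5 of the 9 that passed the filter, beside 11.8% of all genes, and 0 were at least 2-fold higher, beside 14.6%. The median log2 ratio was -1.65, beside 0.05 over all genes past the filter, and the range ran from -3.57 for Ddit3 to 0.12 for Asns. A log2 ratio below 0 was seen for 8 of the 9, beside 47.5% of all genes, and under total-count scaling for the same count, beside 36.1%. At a 4-fold rule 2 were lower (Ddit3 and Trib3), beside 3.52%, and at a 1.5-fold rule 7, beside 22.1%. Scaling to the median of 20 reference genes placed 6 at least 2-fold lower, beside 13.9%, since Ppp1r15a then lay at -1.02. At a mean of at least 10 CPM, where Trib3 and Ddit4 drop out, 3 of 7 were lower, beside 10.2%. Atf3 did not pass the filter and is described by its counts.

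**Figure D1:**
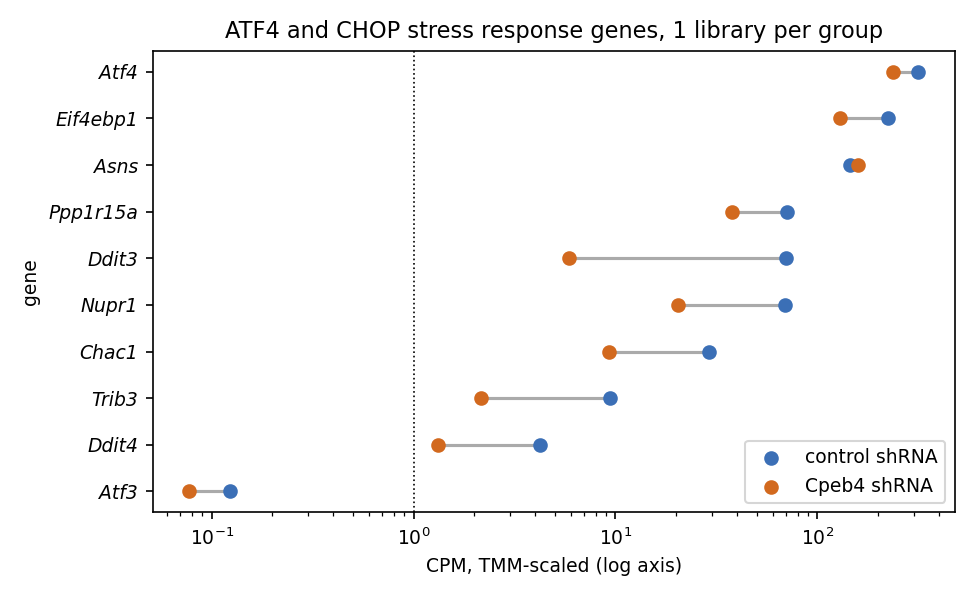
TMM-scaled CPM on a log axis for each gene in the control (blue) and Cpeb4 knockdown (orange) library, 1 library each, with the dotted line at the filter of 1 CPM. Ddit3 has the widest gap, from 70.0 to 5.90 CPM, while the 2 points of Asns lie close together at 145 and 158 CPM.

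Atf4, the factor at the head of the response, had the highest level per transcript length of the 10 in both libraries. Atf4 (ENSMUSG00000042406; mm10 chromosome 15, 80255184 to 80257541, plus strand) had 23162 counts (316 CPM) in the control and 30832 counts (238 CPM) in the knockdown library. This is 1.33-fold lower, or -0.41 on the log2 scale, with a 95% counting interval from -0.43 to -0.38. The value was -0.18 under total-count scaling and -0.27 once trends with transcript length and GC content were taken out. No other annotated gene overlaps Atf4. Atf3, which encodes a related bZIP factor that ATF4 and other stress pathways induce, was near the limit of detection in both libraries. Atf3 (ENSMUSG00000026628; chromosome 1, 191170296 to 191218039, minus strand) had 9 counts (0.123 CPM) in the control and 10 counts (0.0773 CPM) in the knockdown library, where a count of 3 is 0.041 and 0.023 CPM. Its interval, -2.12 to 0.81, held 0, so no difference was detectable at this depth.

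Ddit3, the gene of CHOP, which pairs with C/EBP factors and promotes cell death in lasting stress, showed the largest difference of the 9. Ddit3 (ENSMUSG00000025408; chromosome 10, 127290774 to 127296288, plus strand) had 5124 counts (70.0 CPM) in the control and 763 counts (5.90 CPM) in the knockdown library. The log2 ratio was -3.57 (-3.68 to -3.46), an 11.9-fold lower level, and 0.819% of all genes past the filter had a ratio as low or lower. The raw count was lower although the knockdown library was the deeper one. In the annotation Ddit3 overlaps Mars1 on the opposite strand, Gm4189 on the opposite strand, and a second locus of the same name on its own strand that is not analysed here. Mars1, a methionyl-tRNA synthetase gene, was at 0.62 and had 7251 and 19700 counts. Strand handling is not given, so reads from this overlap cannot be told apart and the Ddit3 value is uncertain to that extent.

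Trib3 and Chac1 are targets that ATF4 and CHOP share. Trib3 encodes a pseudokinase that binds AKT and feeds back on ATF4, and had 685 counts (9.35 CPM) in the control and 280 counts (2.16 CPM) in the knockdown library. Its log2 ratio was -2.11 (-2.32 to -1.91), a 4.32-fold lower level. Trib3 (ENSMUSG00000032715) lies on chromosome 2, 152337422 to 152344032, minus strand. Chac1 (ENSMUSG00000027313; chromosome 2, 119351229 to 119354381, plus strand) encodes an enzyme that degrades glutathione. It had 2134 counts (29.1 CPM) in the control library and 1204 counts (9.31 CPM) in the knockdown library. Its log2 ratio of -1.65 (-1.75 to -1.54) is a 3.13-fold lower level. Both genes had fewer raw counts in the deeper library, and no other annotated gene overlaps either.

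Nupr1 and Ddit4 differed by about as much as Chac1. Nupr1 (ENSMUSG00000030717; chromosome 7, 126623249 to 126630861, minus strand) encodes a small stress-induced nuclear protein. It had 5069 counts (69.2 CPM) in the control and 2643 counts (20.4 CPM) in the knockdown library, a log2 ratio of -1.76 (-1.83 to -1.69). Ddit4 (ENSMUSG00000020108; chromosome 10, 59949669 to 59951834, minus strand) encodes REDD1, an inhibitor of the growth kinase complex mTORC1. Its 311 counts (4.25 CPM) and 171 counts (1.32 CPM) gave it the lowest level per transcript length of the 9 and the widest interval (-1.68, -1.96 to -1.41). A pseudocount of 2 CPM brought Ddit4 to -0.91, and no other scaling, pseudocount, thinning or GC and length correction took it, Nupr1 or Chac1 inside 2-fold.

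The phosphatase subunit gene Ppp1r15a and the translation repressor gene Eif4ebp1 were lower by less than 2-fold. Ppp1r15a encodes GADD34, which returns phosphorylated eIF2α to its active state and so ends the response. Ppp1r15a (ENSMUSG00000040435; chromosome 7, 45522916 to 45526268, minus strand) had 5201 counts (71.0 CPM) in the control and 4868 counts (37.6 CPM) in the knockdown library, a log2 ratio of -0.92 (-0.97 to -0.86). It overlaps Tulp2 on the opposite strand, which had 23 and 36 counts. Eif4ebp1 encodes 4E-BP1, which blocks the cap-binding factor eIF4E until mTORC1 phosphorylates it. Eif4ebp1 (ENSMUSG00000031490; chromosome 8, 27260329 to 27276674, plus strand) had 16346 counts (223 CPM) and 16755 counts (129 CPM), a log2 ratio of -0.79 (-0.82 to -0.75). Under total-count scaling the values were -0.68 for Ppp1r15a and -0.55 for Eif4ebp1.

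Asns, which encodes asparagine synthetase and is a textbook target of ATF4 in amino acid shortage, was the member with no lower level. Asns (ENSMUSG00000029752; chromosome 6, 7675169 to 7693254, minus strand) had 10636 counts (145 CPM) in the control and 20459 counts (158 CPM) in the knockdown library. The log2 ratio was 0.12 (0.09 to 0.16), a 1.09-fold higher level. It ranged from 0.01 under reference-gene scaling to 0.36 under total-count scaling, so its size relative to 0 rests on the scaling.

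**Figure D2:**
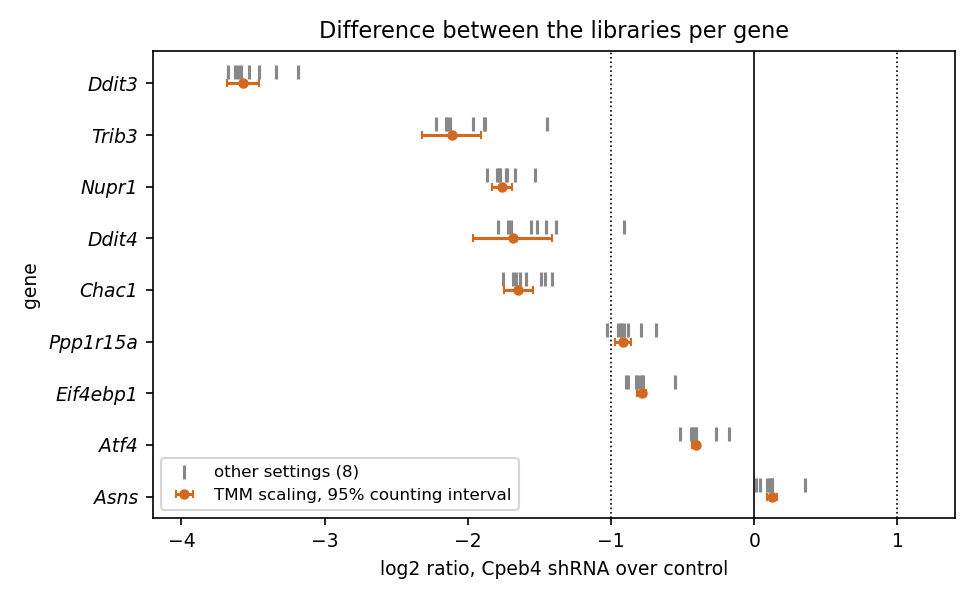
Log2 ratio of knockdown over control for the 9 genes past the filter, with 95% counting intervals (orange) and the values under 8 other settings (grey ticks), solid line at 0 and dotted lines at 2-fold. Ddit3 stands at -3.57, a group of 4 genes between -2.11 and -1.65, and Asns at 0.12.

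Differences between members do not depend on scaling, which moves all genes alike. Of 36 pairs, 33 had a counting interval of the difference in log2 ratio that excluded 0. The 3 whose interval held 0 were the pairs among Chac1, Nupr1 and Ddit4 (0.11, -0.01 to 0.24, for Chac1 minus Nupr1; 0.04, -0.25 to 0.33, for Chac1 minus Ddit4; -0.08, -0.35 to 0.20, for Nupr1 minus Ddit4). In order of log2 ratio in these 2 libraries, Ddit3 was lowest, followed by Trib3. Next came these 3 genes, which the counting intervals do not order, then Ppp1r15a, Eif4ebp1, Atf4 and Asns. The intervals leave out differences between cultures, which 1 library per group cannot show. Settings other than scaling moved this order in part. With a pseudocount of 2 CPM Trib3 (-1.45) was no longer below Nupr1 (-1.67) or Chac1 (-1.46). Ddit4 (-0.91) then lay apart from Nupr1 and Chac1 and next to Ppp1r15a (-0.88). With trends in GC content and length taken out Eif4ebp1 (-0.88) was below Ppp1r15a (-0.79). The control library had 0.221 Ddit3 counts per Atf4 count and the knockdown library 0.0248, an 8.94-fold difference. Chac1 went from 0.0921 to 0.0391 per Atf4 count, and Trib3 from 0.0296 to 0.00908. Asns went the other way, from 0.459 to 0.664 per Atf4 count. Relative to Asns, Ddit3 was 12.9-fold lower in the knockdown library.

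The order of levels also changed. Per kilobase of each gene's principal transcript, the control library had Atf4 at 183 CPM per kilobase, Eif4ebp1 at 112, Nupr1 at 83.5, Ddit3 at 78.6, Asns at 72.6, Ppp1r15a at 30.4, Chac1 at 17.8, Trib3 at 4.62, Ddit4 at 2.42 and Atf3 at 0.062. In the knockdown library the order by CPM per kilobase was Atf4 (138), Asns (79.0), Eif4ebp1 (64.8), Nupr1 (24.6), Ppp1r15a (16.1), Ddit3 (6.63), Chac1 (5.68), Trib3 (1.07), Ddit4 (0.753) and Atf3 (0.039). Ddit3 thus went from position 4 to position 6 and Asns from 5 to 2. Counting intervals of neighbours did not overlap in either library, but the choice of length moves the order. Per kilobase of all annotated exons, Ddit3 was at position 4 and then 7, and Asns at 3 in both libraries, with Nupr1 at 5 in both.

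**Figure D3:**
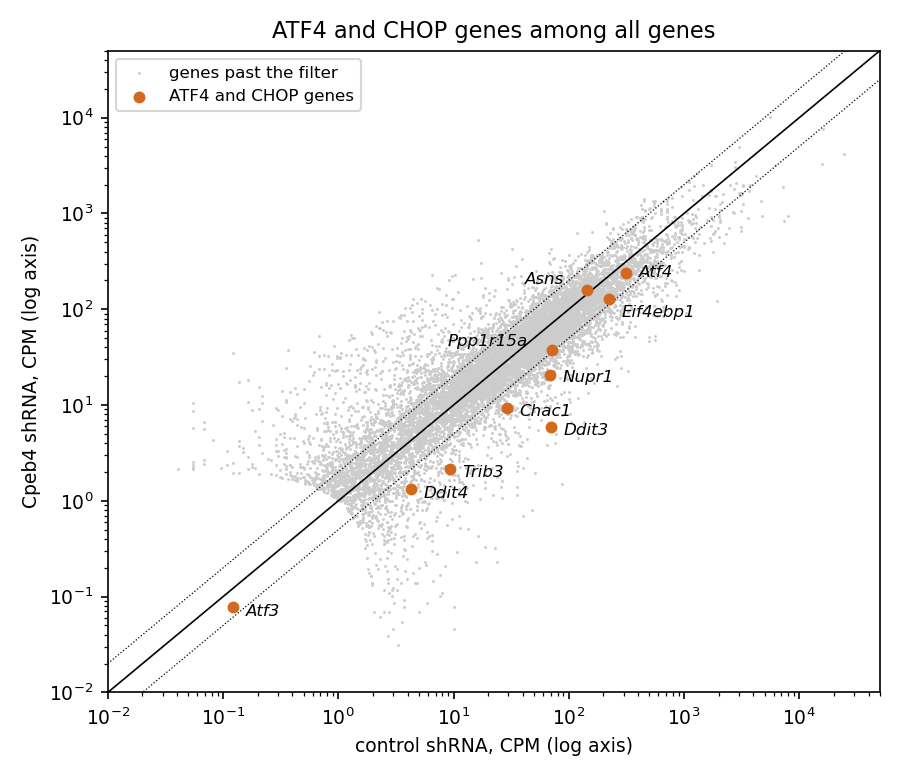
CPM in the control (horizontal) and knockdown library (vertical), both on log axes, for all 12086 genes past the filter (grey) and the 10 stress response genes (orange), with the line of equal level and dotted lines at 2-fold. Ddit3, Trib3, Ddit4, Chac1 and Nupr1 lie below the lower dotted line, and Asns lies next to the line of equal level.

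Among all genes, those nearest in the plane of both log2 CPM values lay at distances of 0.0144 to 0.128 log2 units, over these 2 libraries only. They were Prss8 for Ddit3 (log2 ratio -3.50), Adamts14 for Trib3 (-2.09), Gdpd5 for Nupr1 (-1.63), Psd2 for Ddit4 (-1.84) and Abca1 for Chac1 (-1.61). The nearest were Ndel1 for Ppp1r15a (-0.94), Tm9sf2 for Eif4ebp1 (-0.79), Chp1 for Atf4 (-0.43) and Ankrd52 for Asns (0.12).

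Upstream of ATF4, the sensor kinase of the endoplasmic reticulum was lower while the other 3 eIF2α kinases were within 2-fold. Eif2ak3, which encodes PERK, had 14714 and 7339 counts and a log2 ratio of -1.83 (-1.87 to -1.78). Eif2ak4 (GCN2, the amino acid sensor) was at -0.19, Eif2ak2 (PKR, the RNA sensor) at -0.14 and Eif2ak1 (HRI, the haem sensor) at 0.02, and total-count scaling adds 0.23 to each. Dnajc3, which encodes an inhibitor of PERK and a chaperone, was lower still, at -2.78 (48596 and 12494 counts). Gcn1 (0.38) and Impact (-0.23), which raise and lower GCN2 activity, were within 2-fold, as were the mitochondrial relay genes Dele1 (-0.15) and Oma1 (-0.30) and the adaptor gene Nck1 (-0.24). In this list of sensors and their regulators 2 of 10 were at least 2-fold lower and 0 higher, beside 11.8% and 14.6% of all genes. The median was -0.21, beside 0.05 over all genes.

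Genes of the target of the kinases and of the exchange factor it blocks were within 2-fold in the libraries. A list held eIF2, eIF2B and eIF2α phosphatase subunits and the separate initiation factors eIF2A and eIF2D. All 14 of its genes were within 2-fold, beside 8900 of the 12086 genes past the filter, so most genes were. The median was 0.15, beside 0.05 over all genes. Eif2s1, which encodes eIF2α itself and is named outside the rule after its value was seen, was at 0.30. The list ran from the eIF2B subunit genes Eif2b4 (-0.15) and Eif2b2 (-0.09) to Eif2a (0.69), the gene of eIF2A and not of eIF2α, and the catalytic subunit gene Ppp1cc (0.94). Total-count scaling adds 0.23 to each, which puts Ppp1cc past 2-fold. The genes for turnover of ATF4 and CHOP protein were all within 2-fold too (12 of 12 past the filter, median 0.00), beside the same 8900 of 12086. The ubiquitin ligase genes Btrc (-0.68) and Ube2o (-0.46) were lowest, and the scaffold gene Cul1 (0.34) and the prolyl hydroxylase gene Egln1 (0.27) highest.

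Paralogs of the members lay between -1.17 and 0.47, some near the value of their relative and some not. Ppp1r15b, which encodes the constitutive partner of the eIF2α phosphatase, was at 0.39 while Ppp1r15a was at -0.92. Eif4ebp2 was at 0.47 while Eif4ebp1 was at -0.79, and Trib1 at 0.01 while Trib3 was at -2.11. Chac2 (-0.75, 277 and 291 counts) and Nupr1l (-0.98, 169 and 151 counts) lay on the side of Chac1 and Nupr1. Atf5, a close relative of Atf4 with similar translational control, was 2.25-fold lower (-1.17, 4410 and 3456 counts). Jdp2 (0.07) and Cebpb (0.08), relatives of Atf3 and Ddit3, and Asnsd1 (0.30) were within 2-fold. Of 9 paralogs past the filter 1 was at least 2-fold lower and 0 higher, beside 11.8% and 14.6% of all genes. Total-count scaling adds 0.23 to each ratio, which puts Atf5 inside 2-fold. Ddit4l (4 and 4 counts) and Eif4ebp3 (33 and 79 counts) did not pass the filter.

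Of the bZIP factors that pair with ATF4, ATF3 or CHOP or are their relatives, 30 passed the filter. Their median was -0.23, beside 0.05 over all genes. Of these, 8 were at least 2-fold lower and 2 higher, beside 11.8% and 14.6% of all genes. Besides Ddit3 itself, Creb3 was lowest (-1.62). Fosl1 (3.82, from 10 and 250 counts) and Creb1 (1.16) were highest.

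The target groups of ATF4 in amino acid supply had medians from 0.02 to 0.30, beside 0.05 over all genes past the filter. Reference-gene scaling moves each ratio by -0.11, which takes the lowest of these medians below 0. Among amino acid synthesis and one-carbon enzymes 5 of 15 were at least 2-fold higher and 1 lower (median 0.30), beside 14.6% and 11.8% of all genes. The serine synthesis genes Psat1 (2.28, 3789 and 32617 counts) and Phgdh (2.26, 2883 and 24467 counts) were highest. Aldh1l2, a mitochondrial folate enzyme gene (-1.44), and the transaminase gene Got1 (-0.62) were lowest. Of 9 amino acid transporter genes 1 was higher, a share near that of all genes, and 0 lower, with a median of 0.23. Slc7a5 was at 2.73 and Slc1a4 at 0.81, and the cystine transporter gene Slc7a11 (-0.38) and its partner Slc3a2 (-0.32) were lowest. All 13 tRNA synthetase and export genes were within 2-fold (median 0.02), beside 8900 of the 12086 genes past the filter. They ran from Sars (-0.79) and Wars (-0.74) to Yars (0.57) and Mars1 (0.62). These symbols Sars, Wars and Yars are spelled as in the deposited table.

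Among other stress genes downstream of ATF4 or CHOP, 11 of 23 past the filter were at least 2-fold lower, beside 11.8% of all genes, and 0 higher. The median was -0.99 beside 0.05 over all genes, and 7 of the 23 had a log2 ratio above 0. Dnajb9 (-3.35) and Herpud1 (-3.26), which act in the disposal of misfolded proteins of the endoplasmic reticulum, were lowest, and both also respond to other branches of the unfolded protein response. The death receptor gene Tnfrsf10b (0.68, 200 and 565 counts) and Bcl2l11, which encodes the death factor BIM (0.54), both reported targets of CHOP, were highest.

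In the list of endoplasmic reticulum chaperones, degradation factors and sensors of the unfolded protein response the median was -2.19, beside 0.05 over all genes. Of 25 past the filter 18 were at least 2-fold lower and 0 higher, beside 11.8% and 14.6% of all genes. The genes that head the other branches, Ern1 (-0.19) and Atf6 (-0.08), were within 2-fold, as was the transcription factor gene Xbp1 (-0.48). They were named outside the rule after their values were seen. Eif2ak3 and Dnajc3, given above as the lower genes of the sensor list, are among the 18. Pdia4 (-3.99) and Creld2 (-3.38) were lowest, and the protease genes Mbtps1 (0.43) and Mbtps2 (0.16), whose products cleave ATF6, highest. Summed over 26 listed genes the level was 35320 CPM in the control and 6878 CPM in the knockdown library. The lists overlap in part, so their counts are not independent. Dnajb9 and Herpud1 are in both of the last lists. Atf5 is in the lists of paralogs, bZIP factors and other stress genes, and Sesn2 in those of other stress genes and mTORC1.

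The products of Ddit4 and Sesn2 inhibit mTORC1, which phosphorylates the product of Eif4ebp1. A list of genes of mTORC1, its regulators, and kinases and initiation factors linked to it was centred near 0. Of 23 past the filter 3 were at least 2-fold lower and 2 higher, beside 11.8% and 14.6% of all genes. The median was 0.08, beside 0.05 over all genes. Sesn2, a stress-induced inhibitor of mTORC1 and an ATF4 target, was lowest (-1.56, 3811 and 2283 counts), followed by Castor2 (-1.40). The initiation factor gene Eif4b was at 1.03.

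**Figure D4:**
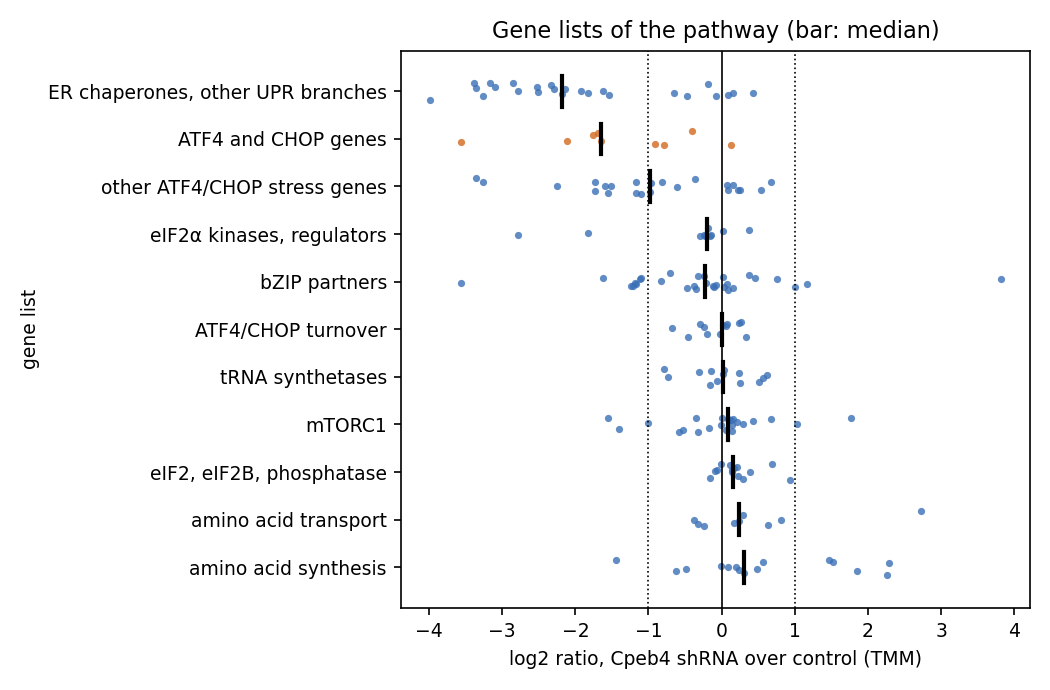
Log2 ratio of each gene past the filter, 1 point per gene, by list, with the list's median as a black bar, a solid line at 0 and dotted lines at 2-fold. The medians run from -2.19 for chaperones and unfolded protein response genes and -1.65 for the ATF4 and CHOP genes (orange) to 0.30 for amino acid synthesis genes.

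Upstream start codons, the feature behind stress-dependent translation of Atf4, were counted in the leader of each gene's principal GENCODE transcript. Atf4 had 3, of which 1 opened a reading frame that overlaps the start of the coding region. Ppp1r15a had 3, Ddit3 and Asns 2 each, and Atf3 and Nupr1 1 each, while Chac1, Trib3, Ddit4 and Eif4ebp1 had 0. That made 6 of 10 genes (60.0%) beside 49.8% of 10521 genes past the filter with a coding transcript, a share near the background. Log2 ratios ran from -3.57 to 0.12 in the 5 such genes past the filter, and from -2.11 to -0.79 in the 4 genes without one, so the ranges overlap.

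CPEB proteins bind the cytoplasmic polyadenylation element, searched here as TTTTAT or TTTTAAT on the transcript strand of the principal transcript's 3′ UTR. An element lay in 4 of the 10 genes (40%), beside 60.1% of 10379 genes with a 3′ UTR. Their density was 0.663 per kilobase in the 10 genes and 1.35 per kilobase in all, and the median 3′ UTR length was 564.5 and 982 bases. In the last 150 bases of the 3′ UTR, 0 of the 7 genes with a UTR of at least that length held one, beside 25.7% of all; the UTRs of Atf4, Ppp1r15a and Asns are shorter. The sites are shown because they bear on the protein that was targeted, with the element in capitals and coordinates in GRCm38.
Trib3 (chr2:152337864-152337885, minus strand): acagtcccTTTTATcagtgccc
Ddit4 (chr10:59950215-59950236, minus strand): ttatttttTTTTATtactgaca
Ppp1r15a (chr7:45522922-45522944, minus strand): ataaagccTTTTAATttgtagtg
Eif4ebp1 (chr8:27275629-27275650, plus strand): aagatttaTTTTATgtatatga
The Ppp1r15a site ended 13 bases before the end of a 3′ UTR of 76 bases, and the others 450 to 1032 bases before it. Ddit3, with the largest difference, and Nupr1, Chac1, Atf3, Atf4 and Asns held none of these letters. A match is a description of the sequence and not a measured binding site.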

How the data were processed

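Gene counts were analysed for 2 libraries, 1 per group, taken from a table deposited by the authors as whole-number counts per gene. The submitters' processing notes name HISAT2 as a tool and mm10 as the build, with no version. For the counting tool, its strand handling and its annotation, nothing is stated in the sources used here. The table lists only genes with at least 1 count in both libraries. Counts were scaled with TMM in edgeR 4.0.16 (R 4.3.3), with factors of 0.922 and 1.08, and genes averaging 1 CPM or more were kept. With 1 library per group, the planned summary was the log2 ratio with the exact Clopper-Pearson 95% interval of the 2 counts. Such intervals cover counting error only, and too little of it where reads are PCR copies and not independent molecules. Over the genes kept, their median width was 0.16 on the log2 scale. Differences between 2 members have Woolf intervals, and levels per kilobase exact Poisson intervals. Gene positions, exons and transcripts came from GENCODE M21 (GRCm38, the assembly of mm10), which held 18935 of the 18987 identifiers. The principal transcript was the one ranked first by APPRIS. Promoters came from RefSeq (GRCm38.p6). The members, the gene lists and the alternatives were chosen with earlier results of these data known. Genes named were the 10 members, all sensors and paralogs past the filter, the 2 highest and 2 lowest of each other list, and the nearest gene to each member. One gene that this rule names is not reported here. Reference genes were used for scaling, with Tfrc (-1.96) and Ppib (-1.06) lowest and Tubb5 (1.93) and Rplp0 (1.01) highest. Alternatives were 4 other scalings (DESeq2 1.42.0 among them), pseudocounts, thinning of the deeper library, filters, size rules and a correction for GC content and length. The computations were tested on simulated counts.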

Additional observations from a re-analysis of the deposited data

How the results depend on the processing

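No paired analysis was possible because there was a single library on each side, so no test was run. No log2 ratio of the 9 genes changed sign under the 8 alternatives run for single genes, and 0 genes were at least 2-fold higher under the 12 settings run for that count. The median log2 ratio was -1.76 with reference-gene scaling (-1.755 before rounding), -1.38 and -0.91 with pseudocounts of 0.5 and 2 CPM, -1.28 with all listed genes kept and -0.92 for genes averaging 10 CPM or more. The pseudocounts act on genes of few CPM such as Ddit4 by construction, and the filters change which genes enter. The count of genes at least 2-fold lower was 3 for genes averaging 10 CPM or more, 4 with a pseudocount of 2 CPM, 6 with reference-gene scaling and 5 under the other settings. At 4-fold 2 genes were lower and at 1.5-fold 7. The order of levels per kilobase of all exons was added after seeing the data. Depth limits Atf3 most, at 9 and 10 counts.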
